A study of Mus musculus with 6 samples.

Results

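Pcdhb9, Pcdhb10, Pcdhb11, Pcdhb12, Pcdhb13, Pcdhb14 and Pcdhb15 are the middle genes of the beta protocadherin cluster on mouse chromosome 18. They were taken by symbol from the Entrez gene IDs of the deposited count tables, which list 27179 genes, and all 7 were present and abundant enough to be tested. Their RNA was compared between wild type neural stem cells and cells that lack Smchd1. The members were chosen by their place in the cluster, with earlier results of these data known.

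The cells were neural stem cells derived from brains of male E14.5 mouse embryos of the strain given as C57BL/6 x FVB/N. They were grown attached to polyornithine and laminin, with EGF and bFGF at 20 ng/ml each. One group of 3 libraries was Smchd1 wild-type, and the other group of 3 was homozygous for the MommeD1 allele of Smchd1 (Smchd1MommeD1/MommeD1), given in the labels as null. MommeD1 is a germline allele, so the loss is not limited to a cell type. The labels speak of cell lines and do not say whether the 3 libraries of a group came from separate embryos, so p-values measure only the spread between these libraries, which may be technical.

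Protocadherins of the alpha, beta and gamma clusters are cadherin-type adhesion molecules at the cell surface. Neurons express different sets of them and recognise their own branches by matching these sets on contact. Each beta gene has its own promoter and a single exon, and so encodes a whole protein, whereas alpha and gamma genes splice a variable first exon to shared last exons. SMCHD1, a noncanonical relative of the SMC proteins, acts on chromatin and takes part in silencing of the inactive X chromosome, of some imprinted genes and of these clusters. Individual functions of the 7 proteins are less well separated than the family's role in adhesion, so they are described here by position.

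Total counts ran from 18608881 to 23253367 per library. Smchd1 itself stood at 271, 260 and 232 CPM in wild type replicates 1, 2 and 3 and at 30.3, 31.1 and 27.9 CPM in the null replicates. CPM here means counts per M counts of library size after TMM scaling, which sets libraries to a common level over most genes. Wild type replicate 3 stood apart: a single record without a symbol made up 44.6% of it, compared with 2.11% to 5.90% of the other libraries, which left an effective depth of 10.1 M counts against 21.3 to 25.8 M counts. Its sample name, 14, lies with those of the null libraries (11, 12 and 13), whereas the names of wild type replicates 1 and 2 carry numbers from a separate, higher range. No source used here says what these numbers stand for. Values without that library are given beside the results of the 7 genes and the counts of the gene lists. In those values genotype and the sample-name range coincide and cannot be told apart. Neural stem cell genes such as Nes (means of 1286 CPM in the wild type libraries and 1184 CPM in the null libraries) and Sox2 (265 and 278 CPM) were expressed in both groups.

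All 7 genes lie on the plus strand, and in the GENCODE M21 annotation (GRCm38, the assembly of mm10) each has 1 transcript of a single exon. In RefSeq coordinates of the same assembly, Pcdhb9 (Entrez 93880) spans 37400855 to 37403909 on chromosome 18. It is followed by Pcdhb10 (93881) at 37411674 to 37414514, Pcdhb11 (93882) at 37421418 to 37425032 and Pcdhb12 (93883) at 37435621 to 37438654. Pcdhb13 (93884) follows at 37442517 to 37446209, Pcdhb14 (93885) at 37447657 to 37451094 and Pcdhb15 (93886) at 37473546 to 37476340. Pcdhb13 and Pcdhb14 are the closest neighbours, 1447 bases apart, and the widest gap, 22451 bases, separates Pcdhb14 from Pcdhb15.

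Beta genes resemble each other, so reads can be split or lost between them. Of the 50-base windows along each GENCODE transcript, the share also found in a transcript of another gene at a different place ran from 1.80% in Pcdhb13, 1.89% in Pcdhb15 and 2.02% in Pcdhb14 to 7.21% in Pcdhb10, 8.75% in Pcdhb9, 9.52% in Pcdhb11 and 11.99% in Pcdhb12. Pcdhb11 and Pcdhb12 shared 239 windows, and Pcdhb9 shared 189 with Pcdhb7. Pcdhb12 is also overlapped by Gm37446, annotated on the opposite strand, and with it 64.2% of its windows were shared. The library kit does not mark strand, so reads of Pcdhb12 and Gm37446 could not be told apart. No source used here gives the read length or how reads with several matches were treated. For Pcdhb14 the deposited length of 3438 bases is much shorter than its GENCODE transcript of 8695 bases.

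Without Smchd1, the RNA of Pcdhb10, Pcdhb11, Pcdhb12 and Pcdhb13 rose, and none of the 7 fell. By the edgeR quasi-likelihood test with Benjamini-Hochberg adjustment over 14207 genes, 4 of 7 passed an adjusted p of 0.05 in the upward direction, where 0.507% of all tested genes did. Of these 4, Pcdhb12 and Pcdhb13 met the filter on low counts only through their null libraries, so their part of the count is no support for a rise. The share of all genes that passed downward was 0.0704%. The median log2 fold change of the 7 was 2.06, against 0.0013 over all tested genes. Every null library lay above every wild type library for 5 of the 7, an order seen in 11.4% of all tested genes. Pcdhb9, Pcdhb12 and Pcdhb13, among these 5, met the filter only through their null libraries. Their part of this count and of the median is therefore no support for a rise either. In bulk RNA, more RNA per cell and more cells that express a gene cannot be told apart.

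**Figure D1:**
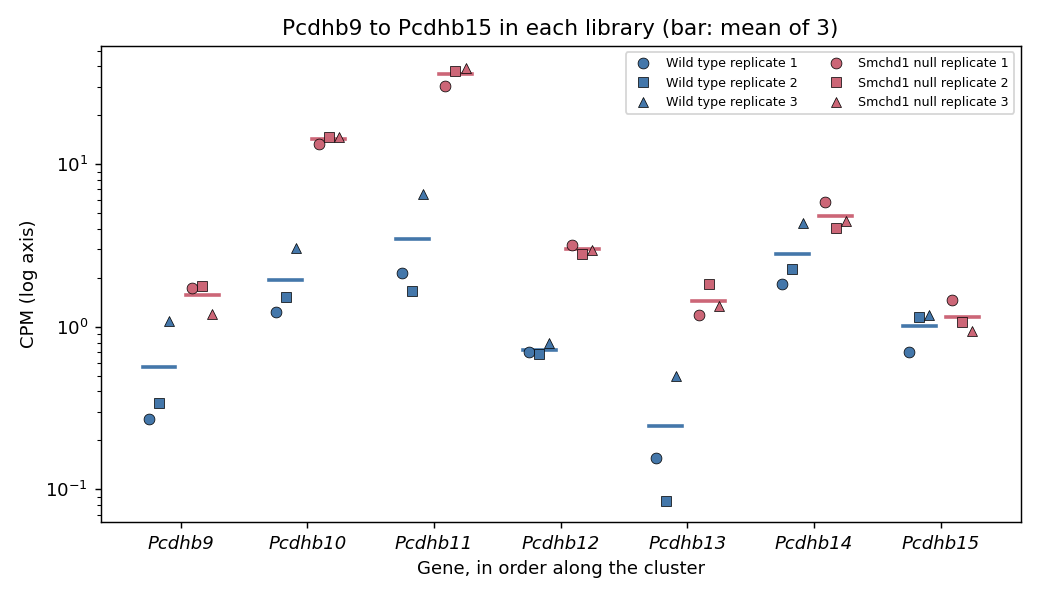
CPM (log axis) of the 7 genes in each of the 6 libraries, in their order along the cluster; blue points are wild type, red points Smchd1 null, marker shapes give the replicate number and bars the mean of 3 libraries. The groups are widest apart for Pcdhb10 and Pcdhb11 and overlap for Pcdhb14 and Pcdhb15, and the blue triangle of wild type replicate 3 is the highest wild type point for each gene.

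Pcdhb9, the first of the 7 along the chromosome, was at the limit of detection in wild type cells. It had 7, 8 and 11 counts in wild type replicates 1, 2 and 3 and 37, 38 and 27 counts in the null replicates. In CPM these were 0.271, 0.341 and 1.09 in wild type and 1.74, 1.78 and 1.20 in null. The groups did not overlap, but the lowest null library stood only 1.10-fold above wild type replicate 3. The wild type mean was 0.568 ± 0.455 CPM and the null mean 1.57 ± 0.32 CPM (SD, n = 3). Its log2 fold change of 1.75 ± 0.45 (SE) did not pass (edgeR adjusted p = 0.137; 95% interval 0.73 to 2.77). Without wild type replicate 3 it was called, at 2.34 (adjusted p = 6.7e-05), and against that library alone the null mean was 1.44-fold higher.

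Pcdhb10 showed a clear step between the groups. It stood at 1.24, 1.53 and 3.08 CPM in wild type replicates 1, 2 and 3 and at 13.3, 14.8 and 14.7 CPM in the null replicates. The lowest null library was 4.34-fold above the highest wild type library, and the null libraries varied little among themselves (SD 5.66% of the mean, against 50.5% in wild type). The mean rose from 1.95 ± 0.99 to 14.3 ± 0.81 CPM (SD, n = 3), or 7.32-fold, with a log2 fold change of 3.02 ± 0.26 (SE; edgeR adjusted p = 0.0014). The null mean was 10.3-fold above wild type replicates 1 and 2 and 4.64-fold above wild type replicate 3. Pcdhb10 was called under all 19 alternative settings, with log2 fold changes of 2.21 to 3.36 and a largest adjusted p of 0.0258.

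Pcdhb11 was the most abundant of the 7 in null cells and had their largest fold change. It stood at 2.13, 1.66 and 6.55 CPM in wild type replicates 1, 2 and 3 and at 30.2, 37.6 and 39.4 CPM in the null replicates. Wild type replicate 3 was 3.45-fold above the mean of the other two wild type libraries and still 4.61-fold below the lowest null library. The mean rose 10.4-fold, from 3.45 ± 2.70 to 35.7 ± 4.89 CPM (SD, n = 3), which is 3.60 ± 0.44 on the log2 scale (SE; edgeR adjusted p = 0.0353). The null mean was 18.8-fold above wild type replicates 1 and 2 and 5.45-fold above wild type replicate 3. With wild type replicate 1 left out the adjusted p was 0.223 and the call was lost, as it was without wild type replicate 2 (0.107). It was also lost when null replicate 1 (0.126), null replicate 2 (0.152) or null replicate 3 (0.153) was removed, and with no filter on low counts (0.0907). The estimate stayed between 3.25 and 3.68 in these fits, and without wild type replicate 3 it was 4.22 (adjusted p = 6.21e-10).

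Pcdhb12 was the gene with the most even wild type libraries. It stood at 0.698, 0.682 and 0.794 CPM in wild type replicates 1, 2 and 3 and at 3.19, 2.81 and 2.99 CPM in the null replicates. Its mean rose 4.14-fold, from 0.725 ± 0.060 to 3.00 ± 0.19 CPM (SD, n = 3), with a log2 fold change of 2.06 ± 0.21 (SE; edgeR adjusted p = 0.00323). The rise was of similar size against wild type replicate 3 (3.78-fold) and against replicates 1 and 2 (4.34-fold). It was called under all 19 alternatives, with log2 fold changes of 1.91 to 2.36 and a largest adjusted p of 0.041. The counts behind it were few, 42 over the wild type and 195 over the null libraries, and the overlap with Gm37446 applies to all of these values.

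Pcdhb13 was the least abundant of the 7 in wild type cells. It had 4, 2 and 5 counts in wild type replicates 1, 2 and 3 and 25, 39 and 30 in the null replicates. These gave 0.155, 0.0853 and 0.496 CPM in wild type and 1.17, 1.83 and 1.34 CPM in null, without overlap. No wild type library reached the level the filter asks for (10 counts at median depth), so the gene could be tested only because its null libraries were higher. Pcdhb9 and Pcdhb12 reached that level in 1 and 2 wild type libraries, short of the 3 required, so the same holds for them. Its log2 fold change was 2.89 ± 0.47 (SE; edgeR adjusted p = 0.038). Pooled over libraries and scaled by effective depth, its null counts were 7.79 times its wild type counts, with a 95% exact binomial interval of 4.16 to 16.1 that covers counting error only. With wild type replicate 1 left out the adjusted p was 0.288 and the call was lost, as it was without wild type replicate 2 (0.194). It was also lost when null replicate 1 (0.168), null replicate 2 (0.192) or null replicate 3 (0.219) was removed, and in libraries thinned to equal totals (0.0648). The estimate stayed between 2.44 and 3.00 in these fits. Without wild type replicate 3 the estimate was 3.51 (adjusted p = 1.36e-05).

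Pcdhb14 was among the higher genes of the 7 in wild type cells, and its groups met. It stood at 1.82, 2.26 and 4.37 CPM in wild type replicates 1, 2 and 3 and at 5.87, 4.08 and 4.46 CPM in the null replicates. Wild type replicate 3 lay within the null range, and replicates 1 and 2 lay below it. The wild type mean was 2.82 ± 1.36 CPM and the null mean 4.80 ± 0.95 CPM (SD, n = 3). The log2 fold change of 0.87 ± 0.31 (SE) did not pass (edgeR adjusted p = 0.218; 95% interval 0.16 to 1.58). Without wild type replicate 3 it was called, at 1.23 (adjusted p = 0.000139), and with the sample-name range as a term it was 0.14 (adjusted p = 0.885).

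Pcdhb15, beyond the widest gap, showed no change that passed the test. It stood at 0.698, 1.15 and 1.19 CPM in wild type replicates 1, 2 and 3 and at 1.46, 1.08 and 0.936 CPM in the null replicates. The highest value was that of null replicate 1 and the lowest that of wild type replicate 1, and the others were mixed. The means were 1.01 ± 0.27 and 1.16 ± 0.27 CPM (SD, n = 3), with a log2 fold change of 0.24 ± 0.30 (SE; edgeR adjusted p = 0.668). The 95% interval ran from -0.45 to 0.92 on the log2 scale, and the counts behind it were 57 over the wild type and 75 over the null libraries. It was called under none of the 19 alternatives, and without wild type replicate 3 it stood at 0.33 (adjusted p = 0.414). The difference in fold change between Pcdhb15 and its neighbours was not tested.

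Wild type replicate 3 was the highest wild type library for each of the 7 genes, under TMM, RLE and upper quartile scaling. This was so for 12 of the 15 other beta genes and for 43.8% of all tested genes, and for 56.3%, 59.0% and 44.7% in the 3 lowest of 5 equal classes by expression, where the 7 genes fall. Its level relative to the mean of wild type replicates 1 and 2 ran from 1.15-fold for Pcdhb12 and 1.29-fold for Pcdhb15 to 3.56-fold for Pcdhb9 and 4.13-fold for Pcdhb13. On the log2 CPM scale the excess was over 1 for 5 of the 7, against 5.81% of all tested genes and 17.3%, 7.5% and 2.25% in the same 3 classes, the lowest of which holds 4 of the 7. The summed level of the 7 was 7.02, 7.72 and 17.6 CPM in wild type replicates 1, 2 and 3 and 56.9, 64.0 and 65.0 CPM in null.

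Markers of glial cells moved with the same library, and so did single neuronal genes, in both directions. The summed level of 9 oligodendrocyte lineage genes was 1219, 1123 and 1611 CPM in wild type replicates 1, 2 and 3 and 1437 to 1518 CPM in null, and none of the 9 was called, but 9 rose without wild type replicate 3. That of 6 astrocyte genes was 53.3, 69.3 and 159.7 CPM in wild type and 121 to 125 CPM in null. None of the 5 tested was called, but 5 rose without that library. The fit without it called 19.7% of all genes higher and 19.4% lower. In that fit genotype and the sample-name range cannot be told apart. The summed level of 11 neuronal genes was 1577 to 1606 CPM in wild type and 1473 to 1510 CPM in null. Map2 made up most of that sum (means of 1084 and 981 CPM). Of the 10 tested, Nefl alone rose, where 0.507% of all tested genes did. With wild type replicate 3 left out, 4 were called higher and 4 lower. Dcx stood at 0.814, 0.384 and 5.56 CPM in wild type replicates 1, 2 and 3, and Syt1 at 27.8, 21.6 and 12.5 CPM. Microglial, vessel and fibroblast genes each summed to at most 3.37 CPM in any library, with Itgam, Tmem119 and Cdh5 at 0 counts in every library. The part of these cell types in the values of the 7 genes was not tested.

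When the range of the sample names was added as a term, genotype was estimated from wild type replicate 3 against the 3 null libraries, so the wild type arm held 1 library. That library is the one that stands apart, and it is assumed to vary like the other libraries, from which the spread is taken. Pcdhb12 met the filter on low counts only through its null libraries, so its part of the next count is no support for a rise. Under that term 3 of the 7 were called higher, where 0.542% of all genes were. Pcdhb10 stood at a log2 fold change of 2.21 ± 0.22 (SE; edgeR adjusted p = 3.54e-05), Pcdhb11 at 2.45 ± 0.21 (adjusted p = 3.61e-05) and Pcdhb12 at 1.91 ± 0.40 (adjusted p = 0.0258). Pcdhb13 lost its call at 1.53 ± 0.57 (adjusted p = 0.248), Pcdhb9 stood at 0.52 and Pcdhb15 at -0.046. Without wild type replicate 3, genotype and the sample-name range cannot be told apart. In that fit 6 of the 7 were called higher, but so were 19.7% of all genes, and 19.4% were called lower. Pcdhb9 and Pcdhb13 met the filter there only through their null libraries, so their part of this count is no support for a rise. The estimates for Pcdhb10 and Pcdhb11 were then 3.36 and 4.22, and that for Pcdhb12 was 2.11. The calls of Pcdhb9, Pcdhb11, Pcdhb13 and Pcdhb14 depended on which wild type libraries were used. Those of Pcdhb11 and Pcdhb13 were also lost when any single null library was left out.

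**Figure D2:**
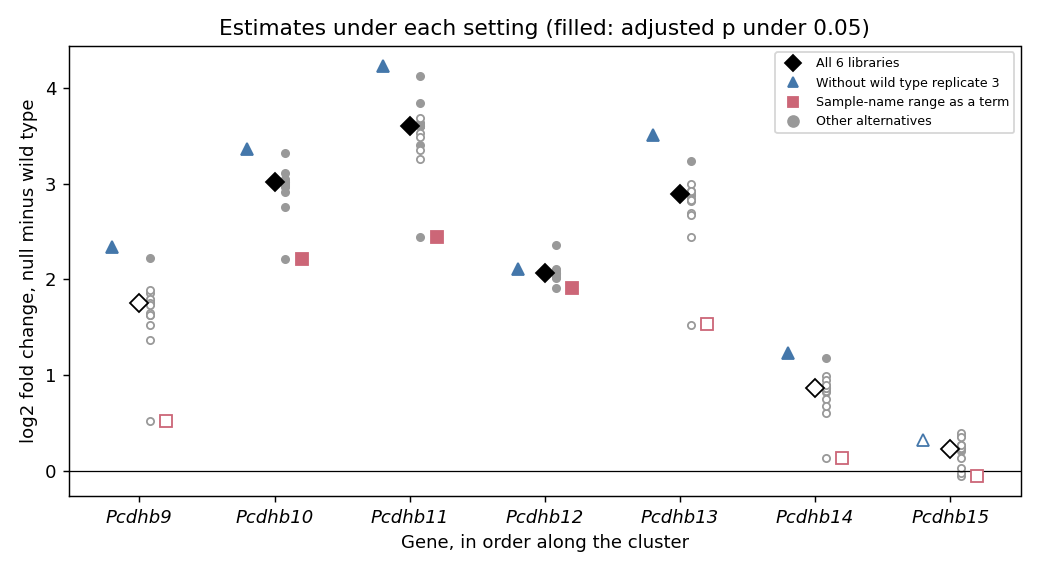
log2 fold change (null minus wild type) of each of the 7 genes with all 6 libraries (black diamonds), without wild type replicate 3 (blue triangles), with the sample-name range as a term (red squares) and under the other alternatives (grey circles); filled symbols have an adjusted p under 0.05. Pcdhb10 and Pcdhb12 are filled under every setting, and Pcdhb15 under none.

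Levels per length put Pcdhb11 first in null cells. The order there, in CPM per kb of the deposited gene length (mean ± SD, n = 3), was Pcdhb11 at 9.88 ± 1.35, Pcdhb10 at 5.02 ± 0.28, Pcdhb14 at 1.40 ± 0.28 and Pcdhb12 at 0.988 ± 0.063. These 4 were separated from one another and from the rest in every library. Pcdhb9 (0.515 ± 0.105), Pcdhb15 (0.414 ± 0.096) and Pcdhb13 (0.392 ± 0.092) followed with ranges that overlapped from one to the next.

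In wild type cells the order was less distinct. Pcdhb11 (0.954 ± 0.746 CPM per kb), Pcdhb14 (0.819 ± 0.396) and Pcdhb10 (0.687 ± 0.347) had overlapping ranges, and so had Pcdhb15 (0.362 ± 0.098), Pcdhb12 (0.239 ± 0.020), Pcdhb9 (0.186 ± 0.149) and Pcdhb13 (0.066 ± 0.060) from one to the next. The step between Pcdhb10 and Pcdhb15 was the only one without overlap, and it was narrow (0.437 against 0.426). Over wild type replicates 1 and 2 alone, Pcdhb14 came first (mean 0.594), followed by Pcdhb11 (0.525) and Pcdhb10 (0.488), and the other 4 kept their order.

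The makeup of the group shifted towards Pcdhb11 and Pcdhb10; these shares are described without a test. Of the summed CPM per kb of the 7 genes, Pcdhb11 made up 27.2%, 18.9% and 33.9% in wild type replicates 1, 2 and 3 and 48.5%, 54.2% and 56.1% in the null replicates. Pcdhb14 made up 24.5%, 27.1% and 23.8% in wild type and 9.93%, 6.18% and 6.68% in null. Pcdhb15 went from 12.2 ± 4.5% to 2.25 ± 0.69% and Pcdhb10 from 20.9 ± 1.2% to 27.0 ± 0.38% (mean ± SD, n = 3). These 4 shares did not overlap between the groups, nor did that of Pcdhb9 (4.10% to 6.69% in wild type and 2.03% to 3.31% in null). Wild type replicate 3, which stood apart in level, lay on the wild type side in each of them. Shares are tied together, so a share can fall without a fall in level. The mean of Pcdhb14 went from 2.82 to 4.80 CPM and that of Pcdhb15 from 1.01 to 1.16 CPM. In CPM, Pcdhb10 and Pcdhb11 accounted for 87.1% of the rise of the summed mean, from 10.8 ± 5.9 to 62.0 ± 4.4 CPM.

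**Figure D3:**
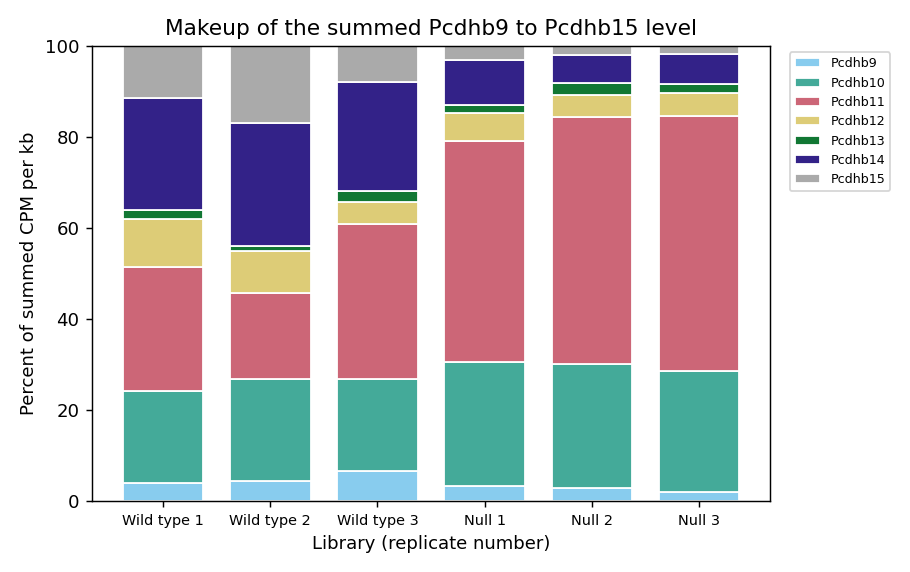
Stacked bars of the percent of the summed CPM per kb that each of the 7 genes made up, in each of the 3 wild type and 3 Smchd1 null libraries. Pcdhb11 takes 18.9% to 33.9% of the wild type bars and 48.5% to 56.1% of the null bars, and the share of Pcdhb14 is smaller in each null bar than in each wild type bar.

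Along the cluster, the 7 genes lay between a block with larger and a block with smaller fold changes. Of the 8 genes upstream, Pcdhb1 to Pcdhb8, 8 rose with a median log2 fold change of 3.12. Pcdhb1 to Pcdhb4 met the filter on low counts only through their null libraries. Their part of this count and median is therefore no support for a rise. Of the 7 downstream, Pcdhb16 to Pcdhb22, 5 rose with a median of 1.07, where 0.507% of all tested genes rose. The immediate neighbours were Pcdhb8, with a log2 fold change of 2.26 ± 0.29 (SE; edgeR adjusted p = 0.011), and Pcdhb16, with 1.09 ± 0.18 (adjusted p = 0.0449). Within the 7, the estimates did not follow one slope: they went from 1.75 at Pcdhb9 up to 3.60 at Pcdhb11 and down to 0.24 at Pcdhb15. Without wild type replicate 3 the medians were 3.31 upstream, 2.34 for the 7 genes and 1.11 downstream. In that fit 8, 6 and 6 genes were called higher, and so were 19.7% of all genes. Wild type levels also differed between the blocks, with summed values of 6.32 to 11.2 CPM upstream and 48.8 to 59.0 CPM downstream. No test was made between the blocks, and these genes share the same control libraries.

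**Figure D4:**
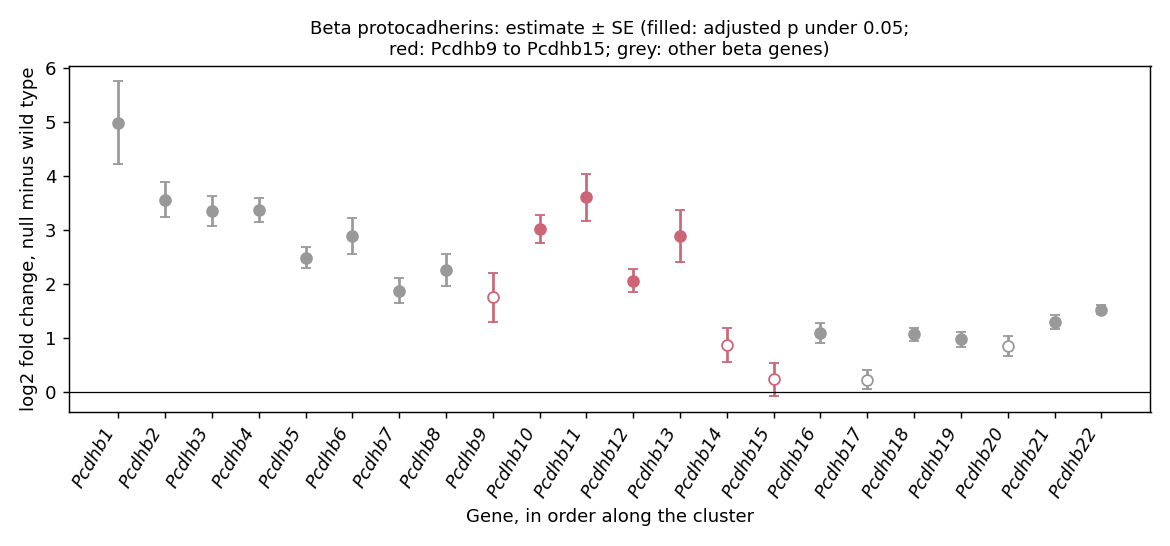
log2 fold change (null minus wild type) with its SE for the 22 beta protocadherin genes, in order along the cluster; red marks Pcdhb9 to Pcdhb15, grey the other beta genes, and filled points have an adjusted p under 0.05. The red points run from 3.60 at Pcdhb11 down to 0.24 at Pcdhb15.

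Other clustered protocadherins and genes beside the clusters were counted in the same fit. Of 13 tested alpha genes 9 rose, and of 22 tested gamma genes 0 passed, where 0.507% of all tested genes rose. The 9 alpha genes met the filter on low counts only through their null libraries, so their count is no support for a rise. At an unadjusted p under 0.05 there were 7 gamma genes higher and 3 lower in null (45.5% of the 22), where 18.6% of all tested genes had such a p. Of 12 other genes beside or between the clusters, 10 were tested and 0 passed the edgeR test, with 3 (30.0%) at an unadjusted p under 0.05, all lower. When wild type replicate 3 was left out, 12 alpha genes were called higher, 9 gamma genes higher and 3 lower, and 4 of 11 tested neighbours lower. That fit called 19.7% of all genes higher and 19.4% lower. The 2 neighbours with the smallest p were Zmat2, a zinc finger gene (log2 fold change -0.17, adjusted p = 0.227), and Taf7, a subunit gene of the general transcription factor TFIID (-0.24, adjusted p = 0.254). Taf7 lies between the beta and gamma clusters.

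Genes known to act at protocadherin promoters, or to signal inside the cell with protocadherins, gave no call in the same test. The first list held 14 genes for CTCF, cohesin and its regulators, DNA methyltransferases, histone methyltransferases and REST. None passed, and 2 (14.3%, below the 18.6% of all genes) had an unadjusted p under 0.05: Smc1a, a cohesin subunit gene (-0.24 ± 0.07, adjusted p = 0.172), and Stag2, another (-0.24 ± 0.08, adjusted p = 0.205). The DNA methyltransferase gene Dnmt3b had 2.79 ± 0.59 CPM in the wild type and 3.31 ± 0.38 CPM in the null libraries, and Ctcf had 180 ± 1.7 and 171 ± 7.3 CPM (SD, n = 3). The second list held 12 genes for kinases and actin regulators, of which 11 were tested and 0 passed, with 1 (9.09%) at an unadjusted p under 0.05. That one was Rac1, a small GTPase gene (-0.17 ± 0.07, adjusted p = 0.245). In the fit that left out wild type replicate 3, 7 genes of the first list were called lower. Of the second list 2 were called higher and 4 lower, where 19.7% of all genes were called higher and 19.4% lower.

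The 7 genes varied together to different degrees over the 6 libraries. Pearson's r of log2 CPM with the mean of the 7 was 0.99 for Pcdhb10 and Pcdhb11, 0.98 for Pcdhb13, 0.96 for Pcdhb9, 0.95 for Pcdhb12, 0.90 for Pcdhb14 and 0.47 for Pcdhb15. Each gene is part of that mean, and the step between the 2 genotypes carries most of these values, which describe 6 libraries only. Of the pairs, Pcdhb10 and Pcdhb11 had the highest r (0.99) and Pcdhb13 and Pcdhb15 the lowest (0.34).

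The tested gene outside the 7 whose pattern lay closest to their mean was A330076H08Rik on chromosome 7. Likeness was measured as the root mean square difference of gene-centred log2 CPM over the 6 libraries, which was 0.136 for it. Its levels were 0.930, 1.19 and 2.28 CPM in wild type replicates 1, 2 and 3 and 6.53, 6.89 and 5.53 CPM in null. The measure picks genes with the shape of the 7. A high wild type replicate 3 and a rise in the genes it picks are therefore no separate result. Next came Pcdhb8 (0.151), Fam163a on chromosome 1 (0.180), Kcnh5, a potassium channel gene on chromosome 12 (0.182), and Serpina3n, a serine protease inhibitor gene on chromosome 12 (0.197). Of these 5, A330076H08Rik (log2 fold change 2.24, adjusted p = 0.00999), Pcdhb8 and Serpina3n (2.29, adjusted p = 0.0292) rose. Fam163a (2.66, adjusted p = 0.0749) and Kcnh5 (1.79, adjusted p = 0.0828) did not pass the edgeR test. Over the other 5 libraries, with wild type replicate 3 left out, these genes ranked 11th, 15th, 25th, 13th and 35th in the order named, and Nrxn3, a presynaptic adhesion gene, lay closest (0.091).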

How the data were processed

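The authors deposited raw counts per Entrez gene in 1 table per library, which also gives gene lengths. CASAVA 1.8.2, featureCounts, edgeR 3.8.2, limma 3.22.0 and mm10 are named in the submitters' processing notes, and per the labels' protocols 1 µg of RNA went into the TruSeq RNA v2 kit. No aligner or annotation is named there (not given in the sources used here). Symbols came from RefSeq (GRCm38.p6), which matched 25275 of 27179 IDs.

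Counts were fitted with edgeR 4.0.16 in R 4.3.3: filterByExpr, TMM, a robust quasi-likelihood model with genotype as its only term, and Benjamini-Hochberg adjustment over 14207 genes at 0.05. An SE is the fold change divided by the square root of F. The scripts were tested on simulated data. Alternatives were DESeq2 1.42.0, limma-voom (3.58.1) with and without sample weights, other scalings and filters, no robust moderation, thinning, leaving out records above 1% of a library, a replicate block, the sample-name range as a term or as a subset, and each library left out. Likeness of patterns used log2 CPM with a prior count of 1. Counting intervals leave out the spread between libraries.

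The members, gene lists and tests were chosen with earlier results of these data known. The text names the members, Smchd1, the beta genes next to them, the smallest p values of other lists and the 5 genes most like the members. Not every listed gene is printed. Nes, Sox2, Ctcf, Dnmt3b, Map2, Nefl, Dcx, Syt1, Nrxn3 and genes at 0 counts were named outside that rule after their values were seen.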

Additional observations from a re-analysis of the deposited data

How the results depend on the processing

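The 4 calls among the 7 genes became 2 to 6 when 1 library was left out, with 6 only without wild type replicate 3. Over all genes, calls higher in null went from 72 to 180 with DESeq2, 2700 with sample quality weights, 163 without a filter and 126 among the libraries named 11 to 14. Calls lower in null went from 10 to 221 with DESeq2, 23 with limma-voom, 2468 with quality weights, 59 without a filter, 109 with the sample-name term and 250 among the libraries named 11 to 14. Leaving out 1 library gave 29 to 2857 higher and 1 to 2819 lower. The log2 fold change of Pcdhb15 turned to -0.046 with the sample-name term and -0.047 among the libraries named 11 to 14, and ran from -0.016 to 0.40 with 1 library left out. The cause was not tested. The other 6 genes kept a positive estimate in every alternative run. Sample quality weights also called Pcdhb9 (2.22) and Pcdhb14 (1.18).

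Replicate numbers are shared between the groups, but same-numbered libraries did not deviate together (correlations of -0.0079, 0.030 and -0.038). Each group held 3 libraries and wild type replicate 3 stood apart, so a weak link between same-numbered libraries could go unseen. With the replicate block, 3 of the 7 genes were called, 48 genes in all higher and 6 lower, and Pcdhb13 (2.83, adjusted p = 0.116) lost its call. Pcdhb9, Pcdhb13 and Pcdhb15 had under 40 counts in every library, which limits their precision.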
